A study of Mus musculus with 60 samples.

Results

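The second day of the TGFβ1 response was examined in control NMuMG cells, as the change between 24 and 48 h of treatment. NMuMG cells are an epithelial line from mouse mammary gland, in which TGFβ1 sets off an epithelial to mesenchymal transition (EMT). The comparison uses 6 of the 60 libraries of the study, namely 3 libraries labelled sgCT at 48 h and 3 labelled sgCT at 24 h, and it covers all 14345 genes with enough counts to test. The sgCT cells are labelled control in an experiment whose other genotype is sgPBRM1, a knockout of the chromatin remodelling subunit PBRM1, and each group is 3 biological replicates as labelled. Cells in both groups received TGFβ1 at 5 ng/ml in 6-well plates, and as labelled the groups differ in time alone. The sgCT libraries at 0 h (no TGFβ1) and 72 h, the sgPBRM1 libraries at 48 and 24 h and the control libraries labelled pLKO of a second NMuMG experiment at 48, 24 and 0 h serve for comparison. The fits also hold the other sgPBRM1 and pLKO libraries and those labelled shATF3, a knockdown of Atf3, of the second experiment. No NMuMG library is labelled as kept for 24 or 48 h without TGFβ1, so the effects of TGFβ1 and of time in culture cannot be told apart. The sources used here do not say whether the sgCT cells are a clone or a pool.

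TGFβ1 is a secreted cytokine that binds a pair of receptor kinases at the cell surface. The active receptor phosphorylates SMAD2 and SMAD3, which enter the nucleus with SMAD4 and act on target genes within hours. Transcription factors of the SNAIL and ZEB families then lower genes of epithelial junctions, while genes of the contractile cytoskeleton and of the extracellular matrix rise. The cytokine is also known to slow the division of mammary epithelial cells.

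Total counts were 18.3, 21.4 and 19.3 M in the 48 h libraries and 18.8, 20 and 21.9 M in the 24 h libraries. Mitochondrial genes took 2.1 to 2.24% of counts at 48 h and 2.3 to 2.37% at 24 h. The 10 most abundant genes took 5.69 to 5.89% at 48 h and 5.47 to 5.55% at 24 h. The epithelial keratins Krt8 (5196 ± 154 CPM at 48 h against 6022 ± 97 CPM at 24 h) and Krt18 (4024 ± 57.9 CPM at 48 h against 4507 ± 62.3 CPM at 24 h) were abundant at both times, whereas the epithelial adhesion gene Epcam stood at 0.568 CPM at 24 h. Pbrm1 itself stood at 109 ± 4.18 CPM at 48 h against 105 ± 2.7 CPM at 24 h in sgCT, and at 94.1 ± 5.37 CPM at 48 h and 99.2 ± 0.751 CPM at 24 h in the libraries labelled sgPBRM1, so its RNA level does not check the knockout. Markers of other cell types were few. Of 7 fibroblast markers 2 could be tested, and their summed level was at most 1.94 CPM at 48 h and 2.40 CPM at 24 h. Of 10 leukocyte markers 2 could be tested, at a sum of 13.8 to 16.2 CPM at 48 h and 12.9 to 15.2 CPM at 24 h, most of it from Csf1r. Of 7 endothelial markers 2 could be tested, at a sum of 1.46 to 1.82 CPM at 48 h and 0.584 to 0.906 CPM at 24 h. In whole cultures, fewer cells that express a gene and less RNA of it per cell cannot be told apart.

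Between 24 and 48 h, 5332 genes changed at an adjusted p under 0.05, which is 37.2% of those tested. Of these, 2725 rose (19% of tested genes) and 2607 fell (18.2%), and the median of all tested genes was 0.003 on the log2 scale. At least 2-fold changes numbered 419 (2.92%), of which 225 were rises and 194 were falls. In the first step, from 0 to 24 h, 8524 genes changed (59.4%; 29.9% rose and 29.5% fell) and 1932 of them at least 2-fold. The share of rises among the genes called in the first step was 50.4%, or 40.1% when counts were scaled by library totals alone. Levels below are CPM, the counts of a gene over the TMM-scaled total of its library in M. Errors are SD over n = 3 libraries, and fold changes are log2 values, 48 h over 24 h unless stated, with their standard error (SE).

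The first-step genes were sorted by what they did next. A gene that had changed at least 2-fold by 24 h counted as going on when it changed the same way again, by at least 0.32 on the log2 scale and past the test, and as turning back when it changed the opposite way by as much. It counted as levelled when the 95% interval of its second step lay within 0.32 in either direction, and as undetermined otherwise. Of 934 genes that had risen by 24 h, 346 (37%) went on rising, 163 (17.5%) levelled, 35 (3.75%) turned back and 390 (41.8%) were undetermined. Of 998 genes that had fallen, 291 (29.2%) went on falling, 66 (6.61%) levelled, 57 (5.71%) turned back and 584 (58.5%) were undetermined. Over all tested genes 15.5% were called at 0.32 or more, in either direction, and 45.8% lay within the levelled range. The 346 genes that went on rising had a median first step of 2.32 and a median second step of 0.77. The 291 that went on falling had medians of −1.59 and −0.92. A further 35 genes rose and 36 fell at least 2-fold in the second step after a first step under 0.5 on the log2 scale. Both steps use the same 24 h libraries, so an error in a 24 h value moves them in opposite directions. In pLKO the first step called 53.4% of tested genes (26.9% higher and 26.5% lower). With the first step taken from there, so that no library is shared with the second step, 434 of 1075 risen genes (40.4%) went on rising, 201 (18.7%) levelled and 22 (2.05%) turned back. Of 1225 fallen genes 565 (46.1%) went on falling, 92 (7.51%) levelled and 33 (2.69%) turned back.

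**Figure D1:**
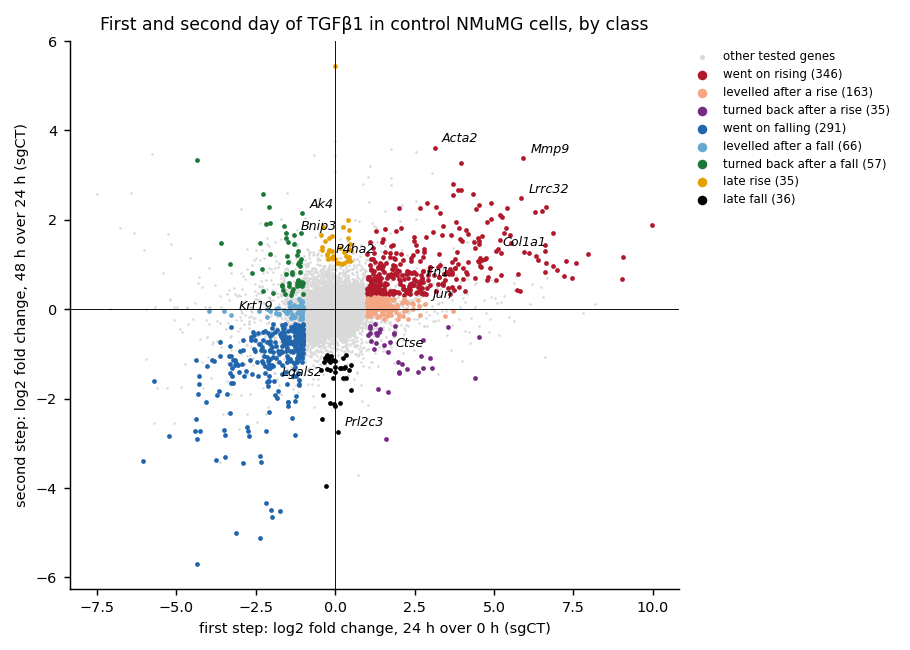
Each point is a tested gene, placed by its log2 fold change from 0 to 24 h (x axis) and from 24 to 48 h (y axis) in sgCT cells, and coloured by class, with undetermined genes among the grey points. The 346 genes that went on rising fill the upper right and the 291 that went on falling the lower left, and the 35 and 57 that turned back are fewer.

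The largest rises of the second day included a contractile actin, a matrix protease and a collagen-binding protein. Smooth muscle actin (Acta2, ENSMUSG00000035783, chromosome 19, 34241090 to 34255336), the actin isoform of myofibroblasts and myoepithelial cells, had 11.7, 10.3 and 8.44 CPM in the 48 h libraries, against 0.902, 0.651 and 0.906 CPM in the 24 h libraries. Its 48 h libraries all lay above its 24 h libraries (log2 fold change 3.61, SE 0.176, adjusted p = 1.62e-25). Matrix metalloproteinase 9 (Mmp9, ENSMUSG00000017737, chromosome 2, 164940780 to 164955850), a secreted gelatinase, had 26.7, 26.3 and 26.3 CPM in the 48 h libraries, against 2.18, 3.4 and 2.04 CPM in the 24 h libraries (log2 fold change 3.38, SE 0.117, adjusted p = 1.62e-32). The groups did not overlap for either gene, as for 46.7% of tested genes, and both were near 0 before treatment. Acta2 averaged 0.09, 0.82, 10.2 and 24.3 CPM at 0, 24, 48 and 72 h, and Mmp9 averaged 0.0362, 2.54, 26.4 and 53.8 CPM at 0, 24, 48 and 72 h. Aebp1 encodes a collagen-binding matrix protein and stood at 13.1, 10.8 and 12.2 CPM in the 48 h libraries, against 1.91, 2.15 and 1.59 CPM in the 24 h libraries (log2 fold change 2.67, SE 0.147, adjusted p = 4.51e-23).

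Others among the 12 largest rises at 10 CPM or more encode surface receptors and enzymes. Lrrc32 (ENSMUSG00000090958, chromosome 7, 98489283 to 98502181), which encodes GARP, a membrane protein that holds latent TGFβ at the cell surface, stood at 54, 53.2 and 53.5 CPM in the 48 h libraries, against 9.02, 9.96 and 9.74 CPM in the 24 h libraries (log2 fold change 2.48, SE 0.0598, adjusted p = 5.1e-40). Its average was 0.157, 9.57, 53.6 and 208 CPM at 0, 24, 48 and 72 h, and the step from 48 to 72 h was called as well (1.96). The PDGF receptor gene Pdgfrb (2.26, SE 0.128) and the FGF receptor gene Fgfr1 (1.69, SE 0.108) rose too, and like Lrrc32 they were under 0.3 CPM at 0 h. Argininosuccinate synthase (Ass1, ENSMUSG00000076441, chromosome 2, 31470207 to 31520672), which makes the precursor of arginine, had 40.1, 39.9 and 38.2 CPM in the 48 h libraries, against 9.13, 8.56 and 8.24 CPM in the 24 h libraries (log2 fold change 2.19, SE 0.0689, adjusted p = 1.52e-34). The collagen V chain Col5a3 (1.88, SE 0.0558), the cytochrome P450 Cyp1b1 (2.26, SE 0.0782) and the kelch family gene Klhl30 (1.67, SE 0.052) went on rising in the same way. The remaining 2 of the 12, Ak4 and Bnip3, had fallen by 24 h and are described with the hypoxia genes.

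Acta2 is shown by its promoter, because CArG boxes, the sites of serum response factor (SRF), are known to drive it. The window runs from 250 bases before to 50 after the start given by RefSeq (GRCm38.p6), at chr19:34255324-34255623, minus strand, 5′ to 3′, with CArG boxes in capitals. A CArG box was taken as a CC and a GG around 6 bases of A or T, of which at most 1 could be another base.
Acta2: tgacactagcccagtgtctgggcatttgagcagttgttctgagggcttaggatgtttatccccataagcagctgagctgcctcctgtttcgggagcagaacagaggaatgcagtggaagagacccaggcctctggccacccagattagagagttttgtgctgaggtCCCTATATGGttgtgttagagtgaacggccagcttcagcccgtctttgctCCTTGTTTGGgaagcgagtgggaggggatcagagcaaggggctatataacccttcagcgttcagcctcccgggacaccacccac
The Acta2 window holds 2 matches. Of the 20 tested genes of the actin cytoskeleton and SRF list 19 have such a window and 9 of these (47.4%) hold a match, against 10% of 27025 promoter windows of all genes. A match describes these letters and was not tested as a binding site.

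In the same list 14 of 20 tested genes rose and 0 fell (2 fell with library totals alone), with a median of 0.23 that stays the same with the gene at 0 counts at 24 h, Myl9, set to its bound. Filamin A (Flna), which crosslinks actin filaments, stood at 3692 ± 37.1 CPM at 48 h against 2698 ± 83.1 CPM at 24 h (0.45, SE 0.026). Calponin 2 (Cnn2) stood at 306 ± 12.4 CPM at 48 h against 198 ± 5.12 CPM at 24 h (0.63, SE 0.0327), tropomyosin 1 (Tpm1) at 1175 ± 7.83 CPM at 48 h against 914 ± 22.8 CPM at 24 h (0.36, SE 0.0241), and the nonmuscle myosin heavy chain Myh9 at 5132 ± 64 CPM at 48 h against 4156 ± 113 CPM at 24 h (0.30, SE 0.0243). The cytoplasmic actin Actb changed least of those named (0.19, SE 0.0226). Myl9, a myosin light chain gene, had 17 counts over the 48 h libraries and 0 over the 24 h libraries, which gives a log2 rise of at least 2.56 when 3 counts are put in place of that 0 for the group. Of 9 genes listed as basal and myoepithelial markers 3 could be tested, Acta2, Cnn1 and Krt17, and all 3 rose (median 2.38), with a summed level of 11.8 to 15 CPM at 48 h and 1.5 to 1.75 CPM at 24 h. Most of the sum at 48 h came from Acta2, and the basal markers Krt5, Krt14 and Trp63 were among those that could not be tested.

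**Figure D2:**
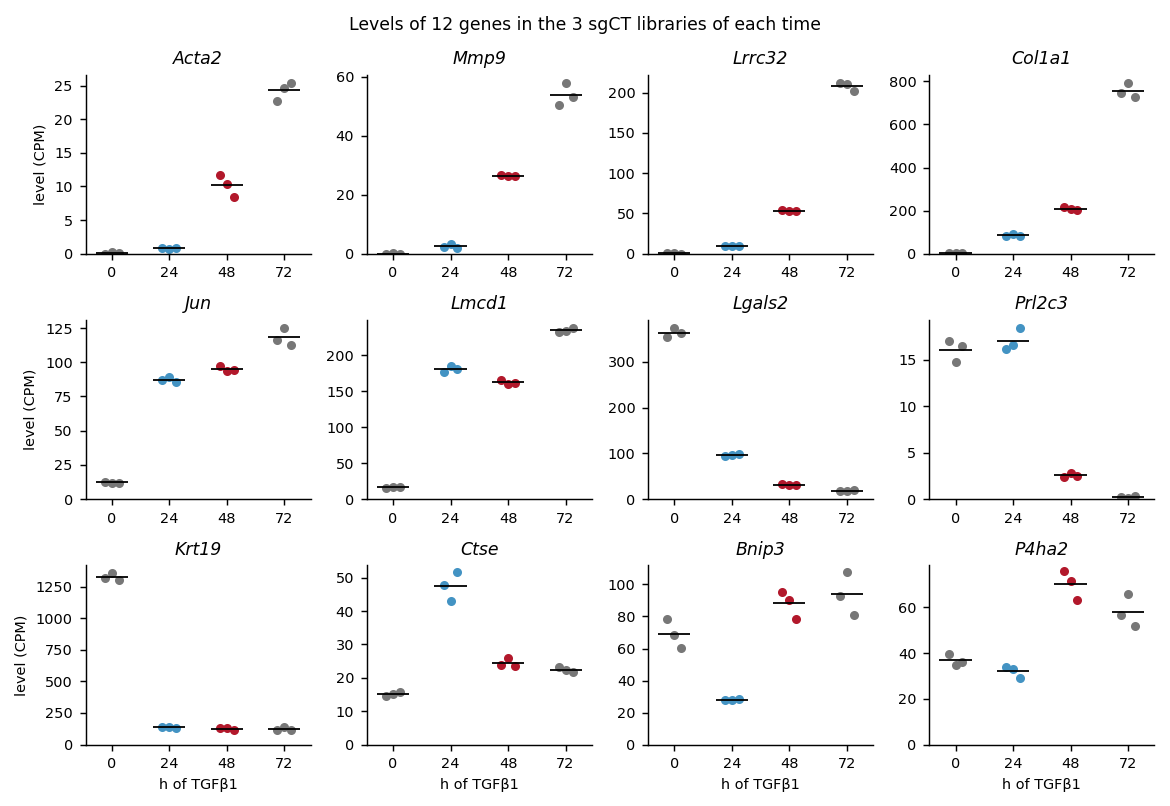
Points are the 3 sgCT libraries and bars their mean, in CPM, at 0, 24, 48 and 72 h of TGFβ1, with 24 h in blue and 48 h in red and each axis starting at 0. The top row shows genes that went on rising, the middle row starts with the levelled Jun and Lmcd1, and Bnip3 lies lower at 24 h than at 0 or 48 h.

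Ligands of the pathway itself rose over the second day, while most receptors, SMADs and inhibitors changed little. Of 11 tested ligand and latency genes 8 rose and 0 fell (7 and 1 with library totals alone), with a median of 0.34. Tgfb2 had 38.1, 38.3 and 38.2 CPM in the 48 h libraries, against 17.7, 18.3 and 19 CPM in the 24 h libraries (log2 fold change 1.06, SE 0.059, adjusted p = 7.85e-23). Tgfb1 had 83.1, 81 and 83.6 CPM in the 48 h libraries, against 62.1, 57.9 and 54.5 CPM in the 24 h libraries (log2 fold change 0.51, SE 0.0428, adjusted p = 2.64e-15). The third isoform, Tgfb3, rose at a low level (3.26 ± 0.113 CPM at 48 h against 1.52 ± 0.384 CPM at 24 h; 1.09, SE 0.198). Among 17 receptor, SMAD and feedback genes 7 rose and 2 fell, none by more than 0.36 on the log2 scale, with a median of 0.08. Smad7 and Skil, inhibitors that TGFβ itself induces, levelled. Smad7 stood at 120.1 ± 1.94 CPM at 48 h against 109.8 ± 4.18 CPM at 24 h (0.13, adjusted p = 0.00619), and without 24 h replicate 3 its step did not pass (0.11, adjusted p = 0.0624). Skil stood at 344 ± 3.54 CPM at 48 h against 317 ± 4.31 CPM at 24 h (0.12, adjusted p = 0.00061).

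Among TGFβ and SMAD target genes 11 of 20 rose and 2 fell (median 0.21). The interleukin Il11 had 552, 536 and 514 CPM in the 48 h libraries, against 319, 331 and 314 CPM in the 24 h libraries (log2 fold change 0.73, SE 0.0314, adjusted p = 5.06e-28), and averaged 2.19, 321, 534 and 540.4 CPM at 0, 24, 48 and 72 h. Thrombospondin 1 (Thbs1), a matrix protein that can activate latent TGFβ, stood at 3028, 3018 and 2998 CPM in the 48 h libraries, against 1927, 1938 and 1925 CPM in the 24 h libraries (log2 fold change 0.64, SE 0.0225, adjusted p = 2.07e-32). The CDK inhibitor gene Cdkn2b (0.23, adjusted p = 3.35e-06) and the matricellular gene Ctgf (0.28, adjusted p = 1.43e-14) rose less. Sphk1, a sphingosine kinase, levelled after a rise, and Id2, an inhibitor of DNA-binding helix-loop-helix proteins, after a fall. Sphk1 stood at 59.1 ± 2.47 CPM at 48 h against 51.3 ± 1.16 CPM at 24 h (0.20, adjusted p = 0.000533). Id2 stood at 103 ± 6.66 CPM at 48 h against 103 ± 4.04 CPM at 24 h (adjusted p = 0.968), and its libraries overlapped between the times.

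Most collagen genes, and most of the enzymes that process them, rose on the second day. Of 14 tested collagen genes 9 rose and 0 fell, with a median of 0.75. Collagen I (Col1a1, ENSMUSG00000001506, chromosome 11, 94936224 to 94953042) had 216, 207 and 201 CPM in the 48 h libraries, against 80.7, 89.7 and 83.4 CPM in the 24 h libraries (log2 fold change 1.30, SE 0.0394, adjusted p = 3.25e-35), and its averages were 2.55, 84.6, 208 and 756 CPM at 0, 24, 48 and 72 h. The groups did not overlap, and the level went on rising to 72 h. Col5a1 stood at 178 ± 5.17 CPM at 48 h against 92.5 ± 5.69 CPM at 24 h (0.94, SE 0.0407) and Col5a3 at 89.4 ± 0.728 CPM at 48 h against 24.3 ± 1.71 CPM at 24 h. Enzymes that modify or crosslink collagen rose in 11 of 15 and fell in 1 (median 0.53). The lysyl hydroxylase Plod2 had 296, 287 and 268 CPM in the 48 h libraries, against 134, 134 and 125 CPM in the 24 h libraries (log2 fold change 1.11, SE 0.0368, adjusted p = 1.48e-33). Among glycoproteins and proteoglycans 12 of 25 rose and 6 fell (median 0.15). Fibronectin (Fn1, ENSMUSG00000026193, chromosome 1, 71585520 to 71653200) had 6844, 6735 and 6525 CPM in the 48 h libraries, against 4289.6, 4452 and 4279 CPM in the 24 h libraries (log2 fold change 0.63, SE 0.029, adjusted p = 1.74e-26), and the members that fell included the laminin chain genes Lama3 (−2.12) and Lamb3 (−0.50), whose proteins lie in epithelial basement membranes. Its level or the overlap of its libraries kept Lama3 out of the 12 largest falls described below. Matrix proteases and their inhibitors rose in 13 of 17 and fell in 1 (median 0.52), Timp3, an inhibitor of metalloproteinases (−1.04). The metalloprotease gene Adam12 (79.4 ± 1.54 CPM at 48 h against 43.1 ± 1.92 CPM at 24 h) is another example of a rise (0.88, SE 0.044).

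Other mesenchymal genes divided. Of 16 tested markers 11 rose and 2 fell (median 0.38). The integrin subunits Itga5 (599 ± 8.83 CPM at 48 h against 351 ± 8.54 CPM at 24 h) and Itgb3 (361 ± 12.4 CPM at 48 h against 172 ± 4.37 CPM at 24 h), parts of fibronectin and vitronectin receptors, rose by 0.77 and 1.07. N-cadherin (Cdh2) stood at 203 ± 1.55 CPM at 48 h against 177 ± 6.25 CPM at 24 h (0.20, SE 0.0331). Vimentin (Vim), the intermediate filament protein of mesenchymal cells, fell, with 1809.7, 1805 and 1778 CPM in the 48 h libraries, against 2190.1, 2197 and 2144 CPM in the 24 h libraries (log2 fold change −0.28, SE 0.0244, adjusted p = 1.43e-14). It averaged 1845, 2177, 1798 and 1839.5 CPM at 0, 24, 48 and 72 h.

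Of 11 tested EMT transcription factors 3 rose and 2 fell (median −0.03), after 9 rises and 0 falls in the first step (median 0.78). Zeb1 had 101, 102 and 102 CPM in the 48 h libraries, against 83.4, 80.3 and 79 CPM in the 24 h libraries (log2 fold change 0.33, SE 0.0383, adjusted p = 1.07e-10). Zeb2 had 53.6, 53.9 and 50.9 CPM in the 48 h libraries, against 40.2, 40.6 and 38.8 CPM in the 24 h libraries (log2 fold change 0.41, SE 0.047, adjusted p = 1.13e-10). The 2 that fell, Sox4 and Hmga2, moved by −0.09 each. Snai1, which had risen in the first step (3.37), had 18.5, 18.1 and 19.4 CPM in the 48 h libraries, against 16.3, 18.4 and 15.2 CPM in the 24 h libraries, and the libraries overlapped (0.16, adjusted p = 0.126). Without 24 h replicate 2 its step passed (0.24, adjusted p = 0.0453). Snai2 stood at 4.21 ± 0.214 CPM at 48 h against 3.63 ± 0.324 CPM at 24 h (0.22, adjusted p = 0.306).

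Most epithelial adhesion and polarity genes fell on the second day. Of 24 tested members 16 fell and 1 rose, the claudin gene Cldn4 (0.26), with a median of −0.30. E-cadherin (Cdh1, ENSMUSG00000000303, chromosome 8, 106603351 to 106670246) had 399, 375 and 365 CPM in the 48 h libraries, against 486, 481 and 478 CPM in the 24 h libraries (log2 fold change −0.34, SE 0.0287, adjusted p = 1.82e-15). The groups did not overlap, and the mean at 72 h was 381 CPM, with no further step called (adjusted p = 0.954). Occludin (Ocln), a tight junction protein, stood at 19.7 ± 0.488 CPM at 48 h against 30.6 ± 3.06 CPM at 24 h (−0.63, SE 0.0703) and desmoplakin (Dsp), which ties keratin to desmosomes, at 683 ± 11.3 CPM at 48 h against 885 ± 20.5 CPM at 24 h (−0.37, SE 0.0298). The mucin Muc1 stood at 5.8 ± 0.0892 CPM at 48 h against 9.32 ± 0.929 CPM at 24 h (−0.68, SE 0.115). Krt7, a keratin of simple epithelia, stood at 795 ± 11.9 CPM at 48 h against 1034 ± 8.26 CPM at 24 h (−0.38, SE 0.0274) after a rise in the first step (0.40). Krt19, a further simple keratin, levelled at 125 ± 7.32 CPM at 48 h against 137 ± 3.62 CPM at 24 h (−0.13, adjusted p = 0.0986) after 1328 CPM at 0 h. Its small step passed without a filter on low counts (adjusted p = 0.000492), with only the compared groups in the fit (0.00268) and with a replicate block (0.0344).

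The 12 largest falls at 10 CPM or more included a pair of galectins and an epithelial transcription factor. Galectin 2 (Lgals2, ENSMUSG00000043501, chromosome 15, 78850860 to 78855529), a sugar-binding protein, had 33, 30.7 and 31.3 CPM in the 48 h libraries, against 94.5, 96.7 and 97.6 CPM in the 24 h libraries (log2 fold change −1.61, SE 0.0483, adjusted p = 2.3e-35). It averaged 363, 96.2, 31.7 and 18.2 CPM at 0, 24, 48 and 72 h. Galectin 4 (Lgals4) changed by −1.83 (SE 0.125), to 3.32 ± 0.567 CPM at 48 h, against 11.9 ± 1.4 CPM at 24 h, and its reads may be shared with a near-identical copy. Ehf, an ETS factor of epithelia, stood at 6.35 ± 0.755 CPM at 48 h against 15.5 ± 0.781 CPM at 24 h (−1.28, SE 0.114), and the scaffold gene Iqgap2 at 9.79 ± 0.942 CPM at 48 h against 26.7 ± 1.1 CPM at 24 h (−1.45, SE 0.0761). The adenosine receptor gene Adora1 (−1.28), the adaptor gene Sh2d4a (−1.26), Sec16b of the secretory pathway (−1.25) and the unconventional myosin gene Myo15b (−1.17) fell too.

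The other 4 of the 12 had not changed, or had changed little, by 24 h. The largest was Prl2c3 (ENSMUSG00000056457, chromosome 13, 12790816 to 12800079), a gene of the proliferin group of prolactin relatives, with 2.33, 2.78 and 2.5 CPM in the 48 h libraries, against 16.1, 16.6 and 18.3 CPM in the 24 h libraries (log2 fold change −2.74, SE 0.135, adjusted p = 2.61e-25). It averaged 16.1, 17, 2.54 and 0.204 CPM at 0, 24, 48 and 72 h. Its reads may be shared with near-identical paralogs, so that the value belongs to the group as much as to this gene. The solute carrier gene Slc4a11 had 10.6, 11 and 11.7 CPM in the 48 h libraries, against 31.7, 32.3 and 32.5 CPM in the 24 h libraries (log2 fold change −1.53, SE 0.0962, adjusted p = 1.56e-20). The galactosyltransferase gene B4galt4 (−1.35) and the proton pump subunit Atp6v0a4 (−1.25) completed the 12. Serpinb5, which encodes maspin of the mammary epithelium, was also a late faller, at 1.77 ± 0.448 CPM at 48 h against 9.53 ± 1.5 CPM at 24 h (−2.44, SE 0.171).

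Genes of cell division fell in the first step and fell again. All 28 tested G2/M and mitosis genes fell between 24 and 48 h, by 0.43 to 0.75 on the log2 scale (median −0.61, after −0.52 in the first step). Their summed level was 2290 to 2431 CPM at 48 h, against 3489 to 3618 CPM at 24 h. The proliferation marker Mki67 had 281, 301 and 296 CPM in the 48 h libraries, against 383, 425 and 408 CPM in the 24 h libraries (log2 fold change −0.47, SE 0.0298, adjusted p = 2.59e-20). The mitotic kinesin Kif23 had 71.1, 74.7 and 72.7 CPM in the 48 h libraries, against 121, 122 and 124 CPM in the 24 h libraries (log2 fold change −0.75, SE 0.0421, adjusted p = 9.89e-23), and the kinetochore protein gene Cenpf stood at 123 ± 6.43 CPM at 48 h against 206 ± 10.6 CPM at 24 h (−0.74, SE 0.0366). All 30 tested DNA replication and S phase genes fell as well (median −0.53, after −0.71). The licensing factor gene Cdc6 had 17.1, 17.7 and 18.7 CPM in the 48 h libraries, against 29.9, 33.8 and 31.2 CPM in the 24 h libraries (log2 fold change −0.83, SE 0.0734, adjusted p = 1.63e-14), and the maintenance methylation gene Uhrf1 stood at 93.6 ± 1.01 CPM at 48 h against 161 ± 8.09 CPM at 24 h (−0.78, SE 0.0381). Among CDK inhibitors and G1 cyclins 2 of 11 rose and 4 fell. Cyclin D1 (Ccnd1) stood at 549 ± 3.91 CPM at 48 h against 770.5 ± 2.97 CPM at 24 h (−0.49, SE 0.0298), cyclin D2 (Ccnd2) at 208 ± 5.69 CPM at 48 h against 174 ± 3.45 CPM at 24 h (0.25, SE 0.0342) and the p53 target Cdkn1a at 152 ± 4.27 CPM at 48 h against 179 ± 4.38 CPM at 24 h (−0.24, SE 0.0352). Of 25 p53 target genes 14 fell and 3 rose (median −0.22). In pLKO 9 of these 25 rose and 3 fell (median 0.17), and of the 11 CDK inhibitors and G1 cyclins 7 rose and 1 fell.

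A pair of G2/M promoters is printed because the list moved as 1 block and because mitotic genes are known to carry CHR elements and CCAAT boxes. The CHR element was searched as TTTGAA and the CCAAT box as CCAAT, each on both strands, and both are in capitals, with CCAAT read as ATTGG where it lies on the other strand (RefSeq, GRCm38.p6, 5′ to 3′; Kif23 at chr9:61946750-61947049, minus strand, and Ccnb2, which encodes cyclin B2, at chr9:70421505-70421804, minus strand).
Kif23: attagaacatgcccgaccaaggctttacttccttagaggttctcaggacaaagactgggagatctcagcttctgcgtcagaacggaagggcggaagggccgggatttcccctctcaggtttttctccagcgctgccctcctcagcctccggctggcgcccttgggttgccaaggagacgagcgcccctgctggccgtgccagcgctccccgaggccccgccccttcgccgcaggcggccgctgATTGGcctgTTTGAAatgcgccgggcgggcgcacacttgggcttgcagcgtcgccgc
Ccnb2: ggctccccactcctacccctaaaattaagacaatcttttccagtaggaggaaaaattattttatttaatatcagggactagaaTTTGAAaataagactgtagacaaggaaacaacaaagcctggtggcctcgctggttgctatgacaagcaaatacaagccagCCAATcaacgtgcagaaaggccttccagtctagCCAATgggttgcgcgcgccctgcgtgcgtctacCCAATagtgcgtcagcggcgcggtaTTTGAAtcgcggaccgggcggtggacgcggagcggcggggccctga
Of the 23 list members with a window, 17 (73.9%) held TTTGAA, against 18.2% of all 27025 windows. CCAAT was in 19 of the 23 (82.6%), against 38% of all windows. The matches describe the letters of these windows, and the factors that bind them were not measured.

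**Figure D3:**
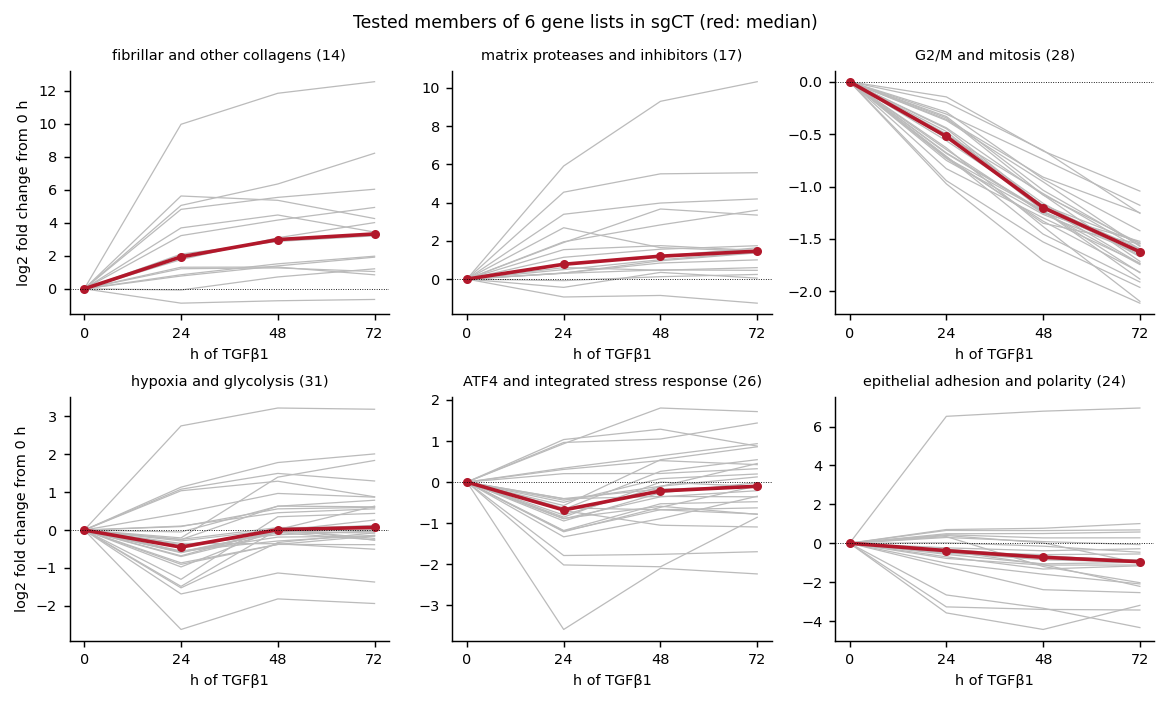
Grey lines are the tested members of 6 gene lists in sgCT cells, as log2 fold change from 0 h at 24, 48 and 72 h of TGFβ1, and red points are the list's median at each time. The median of the collagens is higher and that of the G2/M genes lower at each later time, while the medians of the hypoxia and ATF4 lists lay lowest at 24 h.

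Hypoxia and glycolysis genes mostly fell in the first step and rose in the second. Of 31 tested members 30 rose between 24 and 48 h and 0 fell (median 0.52), after 22 falls and 7 rises in the first step (median −0.45). The member that did not pass was the pyruvate kinase Pkm (−0.01, adjusted p = 0.872). Bnip3 (ENSMUSG00000078566, chromosome 7, 138890836 to 138909519), a mitophagy receptor induced by the hypoxia factor HIF-1, had 95.6, 90.6 and 78.5 CPM in the 48 h libraries, against 28, 27.9 and 28.4 CPM in the 24 h libraries (log2 fold change 1.65, SE 0.0836, adjusted p = 9.88e-25). Its averages were 69.1, 28.1, 88.2 and 93.8 CPM at 0, 24, 48 and 72 h. Pdk1, a kinase that inhibits pyruvate dehydrogenase, had 90.8, 89.2 and 84 CPM in the 48 h libraries, against 38.7, 40.2 and 36.5 CPM in the 24 h libraries (log2 fold change 1.19, SE 0.0641, adjusted p = 1.32e-23), and its averages were 110.5, 38.5, 88 and 105 CPM at 0, 24, 48 and 72 h. The groups did not overlap for either gene. Ak4, a mitochondrial adenylate kinase that the list does not hold, moved alike, with 21.4, 18.3 and 14.9 CPM in the 48 h libraries, against 4.19, 4.4 and 3.71 CPM in the 24 h libraries (log2 fold change 2.15, SE 0.141, adjusted p = 9.29e-20) and 8.44 CPM at 0 h. The glycolytic enzymes Pgk1 (1214 ± 75.2 CPM at 48 h against 844 ± 31.3 CPM at 24 h) and Ldha (1748 ± 92.9 CPM at 48 h against 1248 ± 14.3 CPM at 24 h) rose by 0.53 and 0.49, after log2 changes of −0.90 and −0.87 in the first step. Hexokinase 2 (Hk2) had risen in the first step and rose again, at 358 ± 14.2 CPM at 48 h against 228 ± 5.58 CPM at 24 h (0.65, SE 0.032). P4ha2, a collagen prolyl hydroxylase that hypoxia is known to induce, belongs to the list of collagen enzymes and was a late riser, with 76, 71.7 and 63 CPM in the 48 h libraries, against 34, 33.2 and 29 CPM in the 24 h libraries (log2 fold change 1.13, SE 0.0696, adjusted p = 5.76e-21). Among the 48 h libraries replicate 3 was the lowest for Bnip3, Pdk1, Ak4, Pgk1, Ldha and P4ha2. It was also the lowest at 0, 24 and 72 h for Pdk1, Ak4, Pgk1 and Ldha, but not for Bnip3 at 24 h or P4ha2 at 0 h. The sources used here do not give oxygen or cell density in the cultures.

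The promoters of Bnip3, from the list, and of P4ha2 are printed because both hold the core of the hypoxia response element, searched as ACGTG on both strands and given in capitals here. Where matches on the 2 strands overlap, as in Bnip3, they form a single run (RefSeq, GRCm38.p6, 5′ to 3′; Bnip3 at chr7:138909457-138909756, minus strand, and P4ha2 at chr11:54100674-54100973, plus strand).
Bnip3: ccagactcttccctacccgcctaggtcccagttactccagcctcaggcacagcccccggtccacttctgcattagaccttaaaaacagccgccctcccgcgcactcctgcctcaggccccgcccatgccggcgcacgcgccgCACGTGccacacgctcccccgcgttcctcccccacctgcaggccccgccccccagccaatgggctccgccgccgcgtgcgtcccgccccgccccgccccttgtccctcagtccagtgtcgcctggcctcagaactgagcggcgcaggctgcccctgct
P4ha2: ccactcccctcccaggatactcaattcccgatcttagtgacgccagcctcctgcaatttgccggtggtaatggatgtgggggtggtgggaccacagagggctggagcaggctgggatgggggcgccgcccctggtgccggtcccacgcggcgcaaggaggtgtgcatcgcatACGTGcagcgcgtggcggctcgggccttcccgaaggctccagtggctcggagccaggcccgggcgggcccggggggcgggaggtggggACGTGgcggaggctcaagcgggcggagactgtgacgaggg
Of the hypoxia and glycolysis list, the core was in 14 of the 29 members with a window (48.3%), against 19.6% of all windows and 25.7% of the 10118 windows of tested genes.

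Targets of ATF4, the transcription factor of the integrated stress response to amino acid shortage, also mostly fell in the first step and rose in the second. Of 26 tested members 18 rose and 1 fell (median 0.39), after 20 falls and 5 rises in the first step (median −0.68). Chac1, which degrades glutathione, had 65.6, 58.7 and 57.2 CPM in the 48 h libraries, against 25.8, 29.4 and 28.3 CPM in the 24 h libraries (log2 fold change 1.12, SE 0.0572, adjusted p = 1.72e-24). Asparagine synthetase (Asns) had 129.6, 125 and 132 CPM in the 48 h libraries, against 81.1, 78.9 and 80.2 CPM in the 24 h libraries (log2 fold change 0.69, SE 0.0412, adjusted p = 2.23e-21). The pseudokinase gene Trib3 stood at 34.9 ± 2.73 CPM at 48 h against 19.3 ± 2.1 CPM at 24 h (0.85, SE 0.0671), and the lipoprotein receptor gene Vldlr at 147 ± 0.965 CPM at 48 h against 77.2 ± 1.7 CPM at 24 h (0.93, SE 0.0413). The cystine transporter Slc7a11 had a first step of −3.59, and at 3.27 ± 0.714 CPM at 48 h against 1.14 ± 0.18 CPM at 24 h its rise of 1.49 (SE 0.241) left it below the 13.9 CPM of 0 h. Phgdh, the first enzyme of serine synthesis, fell (309 ± 7.02 CPM at 48 h against 396 ± 7.37 CPM at 24 h; −0.36, SE 0.0292), and Psat1, which acts in the same pathway, levelled at 259.8 ± 4.79 CPM at 48 h against 254 ± 4.38 CPM at 24 h after 881 CPM at 0 h. Nupr1, a stress-induced nuclear protein gene, had risen in the first step and rose again (149.6 ± 0.587 CPM at 48 h against 81.8 ± 3.88 CPM at 24 h; 0.87, SE 0.0374).

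The core of the amino acid response element was searched as TGATGNAA on both strands, and its match is in capitals, on the other strand in Chac1, in the windows of Chac1 (chr2:119350992-119351291, plus strand) and Asns (chr6:7693160-7693459, minus strand), from RefSeq, GRCm38.p6, 5′ to 3′.
Chac1: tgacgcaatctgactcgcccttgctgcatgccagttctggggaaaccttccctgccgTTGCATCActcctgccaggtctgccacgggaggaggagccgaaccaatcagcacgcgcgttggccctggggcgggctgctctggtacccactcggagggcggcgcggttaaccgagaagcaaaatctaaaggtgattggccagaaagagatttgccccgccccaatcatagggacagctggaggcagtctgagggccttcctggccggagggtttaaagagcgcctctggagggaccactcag
Asns: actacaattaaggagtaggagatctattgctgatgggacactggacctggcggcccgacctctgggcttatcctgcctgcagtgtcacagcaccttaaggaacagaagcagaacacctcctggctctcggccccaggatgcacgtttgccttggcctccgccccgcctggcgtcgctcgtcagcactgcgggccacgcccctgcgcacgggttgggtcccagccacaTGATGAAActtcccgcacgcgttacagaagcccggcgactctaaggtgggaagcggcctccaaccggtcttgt
It was in 6 of 23 list members with a window (26.1%), against 4.06% of all windows.

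The genes that levelled after a rise included early transcription factors. Jun, a subunit of AP-1, had 97.3, 93.9 and 94 CPM in the 48 h libraries, against 87, 89.3 and 85.8 CPM in the 24 h libraries (log2 fold change 0.12, SE 0.0409, adjusted p = 0.0144). The step passed the test but lay within 0.32, and it did not pass without 48 h replicate 1 (adjusted p = 0.091), 24 h replicate 1 (0.0533) or 24 h replicate 3 (0.0822). Jun averaged 12.2, 87.4, 95.1 and 118 CPM at 0, 24, 48 and 72 h. Fosl2, a further AP-1 subunit, stood at 264 ± 4.19 CPM at 48 h against 241 ± 5.67 CPM at 24 h (0.13, adjusted p = 0.000183). The LIM domain gene Lmcd1 stood at 163 ± 3.11 CPM at 48 h against 181 ± 4.21 CPM at 24 h (−0.16, adjusted p = 7.28e-05) and the secreted WNT ligand gene Wnt7a at 39.9 ± 1.69 CPM at 48 h against 43.4 ± 0.329 CPM at 24 h (−0.12, adjusted p = 0.187). With only the compared groups in the fit the step of Wnt7a passed (−0.13, adjusted p = 0.0422). In the whole AP-1 and immediate early list 7 of 25 rose and 10 fell (median −0.07). Atf3, a stress-induced factor that the study lowered in its second experiment, stood at 31.7 ± 1.5 CPM at 48 h against 38.9 ± 0.713 CPM at 24 h (−0.30, SE 0.0645), and Fosl1 at 43.8 ± 1.31 CPM at 48 h against 53.3 ± 1.96 CPM at 24 h (−0.28, SE 0.0519). The phosphatase gene Dusp4 went on rising (196 ± 1.73 CPM at 48 h against 143 ± 3.6 CPM at 24 h; 0.46, SE 0.0343). YAP and TEAD targets gave 7 rises and 7 falls of 19 (median 0.04). Cyr61, a matricellular gene of that list, levelled at 535 ± 3.42 CPM at 48 h against 591 ± 11.2 CPM at 24 h, and averaged 905 CPM at 72 h. From 48 to 72 h 14 of the 19 rose and 1 fell, where 16.9% of all tested genes rose and 16.2% fell.

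Among genes that levelled after a fall were the cytokine gene Il33 and the cytochrome P450 gene Cyp2s1. Il33 stood at 5.66 ± 0.991 CPM at 48 h against 5.89 ± 0.387 CPM at 24 h after 93 CPM at 0 h, and Cyp2s1 at 22.1 ± 1.21 CPM at 48 h against 22.8 ± 0.74 CPM at 24 h after 257 CPM at 0 h. Their libraries overlapped between the times.

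Among the 35 genes that turned back after a rise, the largest fall at 10 CPM or more was that of Ctse (ENSMUSG00000004552, chromosome 1, 131638306 to 131675505), which encodes the aspartic protease cathepsin E. Ctse had 24, 26 and 23.5 CPM in the 48 h libraries, against 47.8, 43 and 51.8 CPM in the 24 h libraries (log2 fold change −0.96, SE 0.0661, adjusted p = 8.65e-19), and its averages were 15.1, 47.6, 24.5 and 22.5 CPM at 0, 24, 48 and 72 h. The receptor subunit gene Il18rap had 79.8, 79.4 and 83 CPM in the 48 h libraries, against 116, 115 and 118 CPM in the 24 h libraries (log2 fold change −0.53, SE 0.0414, adjusted p = 1.6e-16), and at 72 h its mean of 53.7 CPM stood beside 54.5 CPM at 0 h. The metalloreductase gene Steap4 (−0.89, SE 0.136), Fam107a (−0.72, SE 0.11) and Palmd (−0.58, SE 0.0966) fell too. After a first-step fall, the zinc-binding metallothionein gene Mt1 had 76.8, 75.7 and 76.7 CPM in the 48 h libraries, against 37, 36.2 and 37 CPM in the 24 h libraries (log2 fold change 1.06, SE 0.0499, adjusted p = 4.31e-26), and its averages were 102, 36.7, 76.4 and 93.8 CPM at 0, 24, 48 and 72 h. Slfn2 of the schlafen family stood at 14.7 ± 0.193 CPM at 48 h against 7.06 ± 0.0447 CPM at 24 h (1.06, SE 0.0977).

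**Figure D4:**
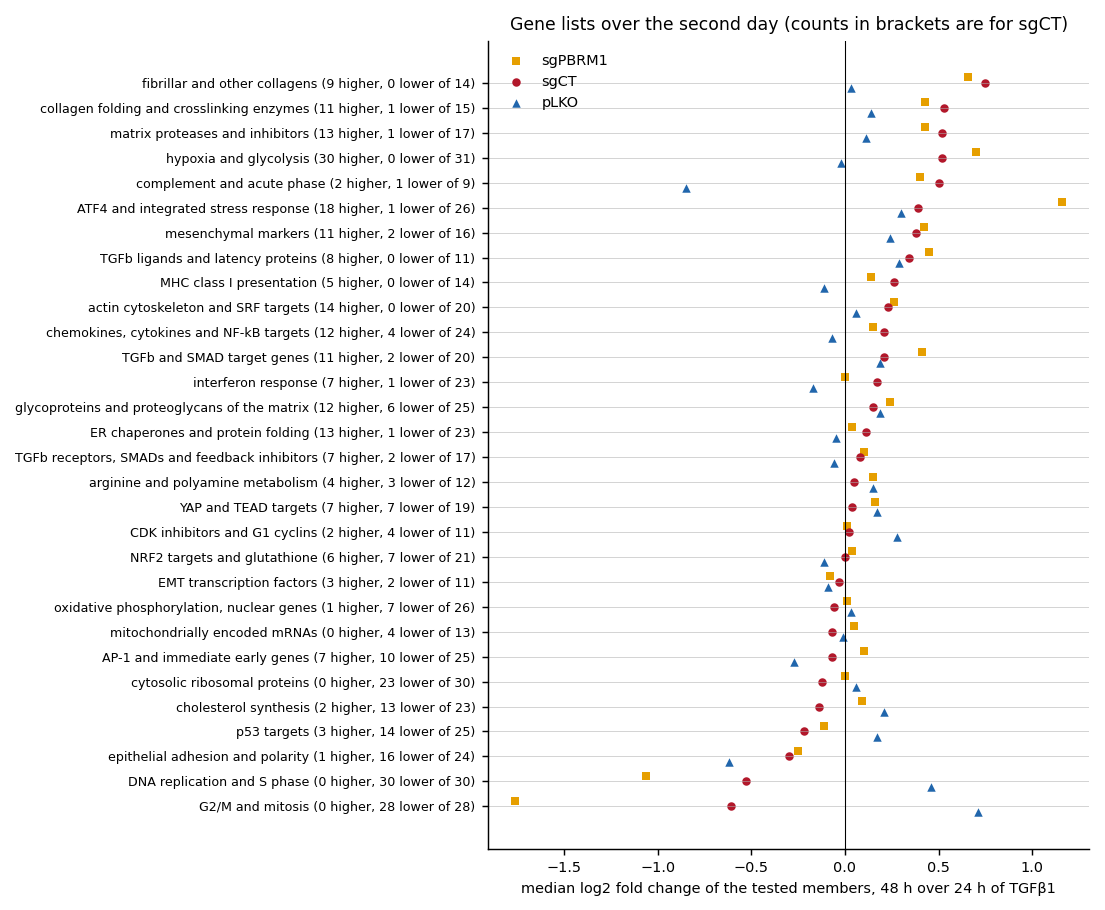
Points are the median log2 fold change, 48 h over 24 h of TGFβ1, of the tested members of each gene list with at least 9, in sgPBRM1, sgCT and pLKO cells. The counts beside each name are the members called in sgCT, and the G2/M and replication lists are negative in sgPBRM1 and sgCT and positive in pLKO.

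Of 23 cholesterol synthesis genes 13 fell and 2 rose (median −0.14), with the isomerase Idi1 (26.7 ± 0.888 CPM at 48 h against 36.4 ± 3.5 CPM at 24 h; −0.44, SE 0.0647) and the synthase Hmgcs1 (135 ± 3.07 CPM at 48 h against 163 ± 5.67 CPM at 24 h; −0.28, SE 0.0354) among those that fell. In pLKO 9 of the 23 cholesterol synthesis genes rose and 1 fell (median 0.21), and in sgPBRM1 9 rose and 3 fell (median 0.09). Their step was higher in sgPBRM1 than in sgCT for 10 of the 23 and lower for 0. Cytosolic ribosomal protein genes fell in 23 of 30 and rose in 0, by no more than 0.24 on the log2 scale (median −0.12). ER chaperone and folding genes rose in 13 of 23 and fell in 1 (median 0.11), with the disulfide isomerase gene Pdia6 at 371 ± 5.22 CPM at 48 h against 277 ± 5.8 CPM at 24 h (0.42, SE 0.028). Targets of NRF2, the regulator of antioxidant genes, split into 6 rises and 7 falls of 21. Heme oxygenase 1 (Hmox1) had 105, 109.5 and 105 CPM in the 48 h libraries, against 46.9, 46.7 and 41.5 CPM in the 24 h libraries, 2.37 times the 24 h mean (adjusted p = 8.94e-31), whereas Gclc of glutathione synthesis stood at 54 ± 1.21 CPM at 48 h against 72.2 ± 2.57 CPM at 24 h (−0.42, SE 0.0409). Cytokine and NF-κB target genes rose in 12 of 24 and fell in 4 (median 0.21). Prostaglandin synthase 2 (Ptgs2) stood at 312 ± 9.14 CPM at 48 h against 213 ± 7.5 CPM at 24 h (0.55, SE 0.0404), the cytokine Lif at 265 ± 6.87 CPM at 48 h against 184 ± 2.64 CPM at 24 h (0.53, SE 0.034) and the NF-κB inhibitor Nfkbia at 58.5 ± 2.53 CPM at 48 h against 36.7 ± 2.27 CPM at 24 h (0.67, SE 0.0549). Of 23 interferon response genes 7 rose and 1 fell. Of 14 genes for MHC class I presentation 5 rose and 0 fell (median 0.26), with B2m among those that rose (392 ± 4.26 CPM at 48 h against 276 ± 6.67 CPM at 24 h; 0.51, SE 0.0285). Complement and acute phase genes gave 2 rises and 1 fall of 9 (median 0.50), and arginine and polyamine genes 4 rises and 3 falls of 12, where Sat1, which acetylates polyamines for export, stood at 603 ± 8.64 CPM at 48 h against 376 ± 11.4 CPM at 24 h (0.68, SE 0.0319). Nuclear genes of oxidative phosphorylation rose in 1 of 26 and fell in 7 (0 and 9 with library totals alone), and mitochondrially encoded mRNAs rose in 0 of 13 and fell in 4. Luminal mammary markers rose in 2 of 8 and fell in 4 (1 and 4 with library totals alone).

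The second step was set beside that of the PBRM1 knockout in the same experiment, with the difference tested gene by gene as an interaction. It differed for 2275 genes (15.9%), of which 1073 were higher and 1202 lower in sgPBRM1. These are 7.48% and 8.38% of tested genes. With library totals alone 716 were higher and 1675 lower. In sgPBRM1 itself 6828 genes changed (47.6%), 3637 higher (25.4%) and 3191 lower (22.2%). Rises were 53.3% of those calls, or 41.1% with library totals alone. The G2/M genes, all 28 of them, fell in sgPBRM1 as in sgCT, with medians of −1.76 in sgPBRM1 and −0.61 in sgCT, and the difference passed for all 28. For Mki67 the fall was larger in sgPBRM1 (log2 fold change −1.64 in sgPBRM1 and −0.47 in sgCT, difference −1.17, SE 0.0438, adjusted p = 1.22e-29). The replication genes had medians of −1.06 in sgPBRM1 and −0.53 in sgCT, and 28 of 30 differed. The ATF4 list had medians of 1.16 in sgPBRM1 and 0.39 in sgCT, and 20 of 26 differed, all of them higher in sgPBRM1. Asns is an example (log2 fold change 1.44 in sgPBRM1 and 0.69 in sgCT, difference 0.76, SE 0.0571, adjusted p = 1.03e-16). For Cdh1 the second step was log2 fold change −0.01 in sgPBRM1 and −0.34 in sgCT, difference 0.34, SE 0.0407, adjusted p = 1.89e-09. For Col1a1 it was log2 fold change 0.65 in sgPBRM1 and 1.30 in sgCT, difference −0.65, SE 0.0554, adjusted p = 1.1e-14. In the hypoxia list 14 of 31 genes were higher and 2 lower in sgPBRM1, with medians of 0.70 in sgPBRM1 and 0.52 in sgCT. The glycolytic enzyme Pgk1 was among the 14 (log2 fold change 0.78 in sgPBRM1 and 0.53 in sgCT, difference 0.25, SE 0.0517, adjusted p = 0.000161), whereas for Bnip3 the difference did not pass (difference −0.10, 95% interval −0.33 to 0.12, adjusted p = 0.62).

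The pLKO libraries are control NMuMG cells of the second experiment, in a table of its own, and repeat the same times. There 3205 of 14983 tested genes changed between 24 and 48 h (21.4%), 1650 higher (11%) and 1555 lower (10.4%). The spread between replicates was larger in that experiment, with a biological coefficient of variation of 7.59% over its pLKO and shATF3 libraries. It was 2.88% over the sgCT and sgPBRM1 libraries. Of the 225 genes that rose at least 2-fold in sgCT 218 were tested in pLKO, where 69 rose, 6 fell and the median was 0.35, beside 1.44 in sgCT. Of the 194 that fell at least 2-fold in sgCT 173 were tested, where 39 fell, 1 rose and the median was −0.51, beside −1.39 in sgCT (−1.37 with genes at 0 counts set to their bound). The values in sgCT chose these genes, so the medians are not a test of a difference. Of the 346 genes that went on rising in sgCT 344 were tested in pLKO, where 128 rose and 40 fell. Of the 291 that went on falling 277 were tested, where 87 fell and 35 rose. Of the 35 that turned back after a rise 31 were tested, where 10 fell and 2 rose, and of the 57 that turned back after a fall 56 were tested, where 11 rose and 6 fell. Acta2 (3.49, SE 0.12, adjusted p = 2.95e-17), Lrrc32 (1.66, SE 0.0929, adjusted p = 4.76e-13) and Col1a1 (1.29, SE 0.113, adjusted p = 1.76e-09) rose in pLKO, and Cdh1 fell (−1.12, SE 0.0707, adjusted p = 4.17e-12). Other genes that rose in sgCT did not pass in pLKO, among them Zeb1 (−0.04, adjusted p = 0.759), Tgfb1 (−0.12, 0.251), Itga5 (0.04, 0.524), Itgb3 (−0.09, 0.345) and Lif (−0.09, 0.238). Some were called the opposite way. Vim (0.16, adjusted p = 0.0114), Phgdh (0.40, 2.48e-08) and Idi1 (0.27, 0.0452) rose in pLKO, and Myh9 (−0.19, 0.012) and Sat1 (−0.28, 0.00956) fell. Bnip3 (0.11, SE 0.189, adjusted p = 0.744), Pdk1 (0.08, SE 0.147, adjusted p = 0.773) and P4ha2 (0.02, SE 0.0959, adjusted p = 0.904) did not pass there. Pgk1 (0.31, SE 0.0596, adjusted p = 0.000246), Ldha (0.29, SE 0.0623, adjusted p = 0.000883), Hk2 (0.17, SE 0.0506, adjusted p = 0.0141) and Ak4 (0.86, SE 0.213, adjusted p = 0.00389) rose in pLKO. In the hypoxia list 30 of 31 genes rose and 0 fell in sgCT, and 6 rose and 7 fell in pLKO. The pLKO libraries at 24 h differed among themselves for such genes, as for Bnip3, which had 47, 66.8 and 58.5 CPM at 48 h against 72.5, 27.3 and 58.3 CPM at 24 h. Without pLKO_24h replicate 2, the lowest of these, 4 genes of the list rose and 9 fell, and leaving out any 1 of the 6 pLKO libraries gave 4 to 8 rises and 5 to 9 falls. Collagen genes rose in 9 of 14 and fell in 0 in sgCT (median 0.75), and rose in 4 of 13 and fell in 4 in pLKO (median 0.03), where Col5a3 did not pass (−0.14, SE 0.106, adjusted p = 0.388). In pLKO Col5a3 had risen by 9.60 in the first step and stood at 344, 419.7 and 366 CPM in the 24 h libraries. ATF4 targets rose in 18 of 26 and fell in 1 in sgCT, and rose in 16 and fell in 1 in pLKO (median 0.3). In the first step of pLKO Chac1 (1.16) and Trib3 (0.52) had risen, and Asns (−0.16) and Slc7a11 (−0.69) had fallen. The second step of Trib3 did not pass there (−0.03, adjusted p = 0.898). The G2/M genes went opposite ways, with 28 falls in sgCT (median −0.61) and 28 rises in pLKO (median 0.71). Of the replication genes 30 fell in sgCT, and 23 rose and 0 fell in pLKO. Mki67 changed by −0.47 in sgCT and 0.78 in pLKO, after first steps of −0.83 in sgCT and −1.35 in pLKO. The first step was also a fall in both for Kif23 (−0.63 in sgCT and −1.37 in pLKO), Cenpf (−0.45 and −1.08) and Cdc6 (−0.90 and −1.33). The difference between the experiments was not tested, because their tables were made and fitted separately.

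**Figure D5:**
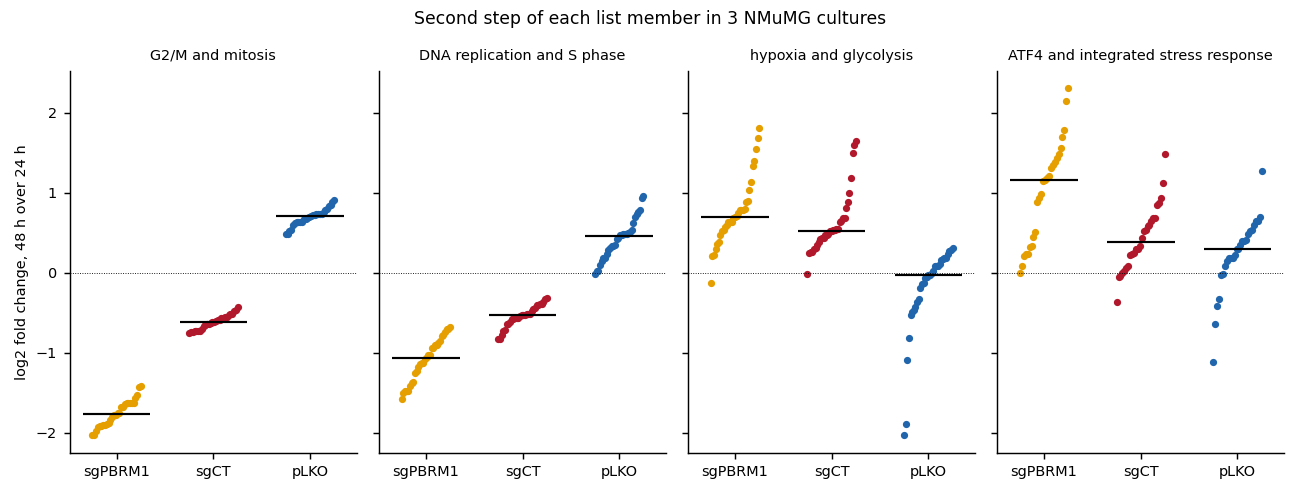
Each point is a tested member of 1 of 4 gene lists, as log2 fold change from 24 to 48 h of TGFβ1 in sgPBRM1, sgCT and pLKO cells, and bars are medians. All G2/M genes lie below 0 in sgPBRM1 and sgCT and above 0 in pLKO, and the hypoxia list has medians of 0.70 in sgPBRM1, 0.52 in sgCT and −0.02 in pLKO.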

How the data were processed

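RNA-seq gene counts of NMuMG cells were used as the authors deposited them, unnormalised, in 2 tables. The first holds the sgCT and sgPBRM1 libraries and the second the pLKO and shATF3 libraries. Each lists 54532 genes, with coordinates of GRCm38 (mm10). Per the labels' protocols, a sequencing company built, sequenced and analysed the NMuMG libraries. STAR 2.7.10a, HISAT2, Trim Galore 0.6.7, DESeq2 and edgeR appear in the submitters' processing notes, as does mm10. The sources used here do not give which aligner made these tables or whether reads were counted by strand, so overlapping genes on opposite strands may share reads.

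The quasi-likelihood test of edgeR 4.0.16, run in R 4.3.3, was applied to these counts with TMM factors, filterByExpr (minimum count 10, minimum total 15) and Benjamini-Hochberg adjustment over all tested genes at 0.05. Experiment 1 was fitted as 8 groups in 24 libraries. Experiment 2 was fitted separately, as 8 groups that include shATF3 at each time. Libraries of experiment 1 held 16.2 to 21.9 M counts, and those of experiment 2 held 15.6 to 22.7 M. Replicate libraries differed by more than counting noise, so none was taken as a duplicate. With 3 libraries a group, an exact permutation test of a single value could not go below p = 0.1, so the tests share their estimate of spread across genes. The script was tested on simulated data. Alternatives were DESeq2 1.42.0, RLE factors, library totals, no filter, other samples in the fit, a replicate block, leaving out each replicate, and other class margins.

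The named genes are part of those given by a fixed rule: the 12 largest rises and falls at 10 CPM or more, the 6 largest per class, key EMT genes, and up to 4 members per list. A few others are named as members of small counts, after their values were seen. The gene lists and the comparison itself were chosen with earlier results of these data known, and some genes are not reported here. Promoter windows and gene starts come from RefSeq (GRCm38.p6). The main fit did not pair the sgCT time points by replicate number.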

Additional observations from a re-analysis of the deposited data

Results flagged for a closer look

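The second step differed between sgPBRM1 and sgCT cells by a test of the difference itself (sgPBRM1 step minus sgCT step, edgeR's quasi-likelihood test with Benjamini-Hochberg adjustment) for 2275 genes. Among the lists, 28 of 28 G2/M and mitosis genes and 28 of 30 DNA replication genes had a lower step in sgPBRM1, and 20 of 26 ATF4 genes a higher step. Among single genes, the step was lower in sgPBRM1 by log2 differences of −0.87 for Acta2 (adjusted p = 0.0169), −0.28 for Lrrc32 (0.0162), −1.17 for Mki67 (1.22e-29), −0.42 for Cdc6 (0.00832), −1.40 for Prl2c3 (0.0167), −0.65 for Col1a1 (1.1e-14) and −1.32 for Mmp9 (1.65e-10). It was higher by 0.48 for P4ha2 (0.0001), 1.03 for Chac1 (9.4e-16), 0.76 for Asns (1.03e-16) and 0.34 for Cdh1 (1.89e-09). A lower step is not a lower level. In sgPBRM1 Acta2 averaged 2.44 CPM at 24 h and 16.4 CPM at 48 h, against 0.82 and 10.2 CPM in sgCT. Mmp9 averaged 38.2 and 159.6 CPM in sgPBRM1, against 2.54 and 26.4 CPM, and Lrrc32 20.9 and 96.5 CPM, against 9.57 and 53.6 CPM. Cdc6 and Prl2c3 averaged lower in sgPBRM1 at both times, Prl2c3 at only 0.212 CPM at 48 h, and Mki67 and Col1a1 at 48 h alone. Levels at a single time were not tested between the genotypes.

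The 28 G2/M and mitosis genes also went opposite ways in the control cells of the 2 experiments, lower in sgCT and higher in pLKO, a difference that was not tested. In the first step Mki67 had fallen in both (−0.83 in sgCT and −1.35 in pLKO). With 3 libraries a group, single libraries were not tested as outliers.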

How the results depend on the processing

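The counts of genes called in the 5 comparisons tried moved by less than 1.5 times under every alternative. For the second step of sgCT the 5332 calls became 5333 with RLE factors, 5397 with library totals, 4848 without a filter, 5435 with only the compared groups, 5033 with DESeq2 and 4731 to 4840 without 1 replicate. Same-number correlations were small, at 0.071, 0.003 and 0.094 between 48 and 24 h and 0.054, 0.015 and 0.063 between 24 and 0 h. Each sgCT 48 h library still correlated best with its own number at 24 h, replicate 2 by only 0.003 against 0.002, and each 24 h library with its own number at 0 h. Between 48 and 24 h the same-number values were 0.024, −0.043 and 0.038 in sgPBRM1 and 0.169, 0.106 and −0.24 in pLKO. There the pattern did not hold, as pLKO_48h replicate 3 correlated best with pLKO_24h replicate 2 (0.275). That the numbers pair the libraries is a hint from the sgCT data only, and a replicate block gave 5419 calls. Krt19, given as levelled, passed with the block (−0.13, adjusted p = 0.0344), without a filter (−0.14, adjusted p = 0.000492) and with only the compared groups (−0.14, adjusted p = 0.00268). The block gave 8568 for the first step, 6915 for sgPBRM1, 2389 for the interaction and 3093 for pLKO. The class counts depended on their margins. With a margin of 1.5-fold 228 genes went on rising, 22 turned back after a rise, 347 levelled after a rise and 168 levelled after a fall, since a wider margin takes in more levelled genes. With the first step from pLKO, 22 turned back after a rise, 565 went on falling and 33 turned back after a fall, and the cause was not tested. With a first step of at least 4-fold, which takes fewer genes, 195 went on rising, 12 turned back and 18 levelled after a rise, and 105 went on falling, 12 turned back and 7 levelled after a fall. Of 1475 alternative values for 123 named genes 1466 kept their side of the threshold, 4 lost the call, 5 gained it and 0 reversed. Direction was compared only where the main or the alternative value passed. Leaving out each pLKO library in turn was tried for 4 gene lists after the data were seen, and the 28 rises of G2/M genes in pLKO did not change.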

Other observations

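Some secreted and surface proteins moved in ways not described above. The hyaluronan synthase gene Has2 had 21.7, 19.6 and 21.3 CPM in the 48 h libraries, against 9.66, 9.31 and 8.29 CPM in the 24 h libraries, 2.3 times the 24 h mean (adjusted p = 4.03e-16), and the groups did not overlap. In pLKO it rose too (1.46, SE 0.168, adjusted p = 1.72e-07). The chemokine gene Ccl7 had 35.6, 38.2 and 40.1 CPM in the 48 h libraries, against 22, 18.9 and 19 CPM in the 24 h libraries (log2 fold change 0.93, SE 0.0843, adjusted p = 3.63e-14). It did not pass in pLKO (−0.13, SE 0.0838, adjusted p = 0.309). Complement C3 and ceruloplasmin (Cp), which carries copper, rose in sgCT and fell in pLKO. C3 had 38.1, 37.2 and 37 CPM in the 48 h libraries, against 18.3, 18.7 and 19.6 CPM in the 24 h libraries (log2 fold change 0.98, SE 0.0701, adjusted p = 2.91e-18), and −2.24, SE 0.228, adjusted p = 2.39e-08 in pLKO. Cp had 163, 164 and 157 CPM in the 48 h libraries, against 121, 114 and 122 CPM in the 24 h libraries (log2 fold change 0.44, SE 0.0382, adjusted p = 6.61e-15), and −0.64, SE 0.0938, adjusted p = 8.37e-06 in pLKO. The EGF receptor ligand gene Areg fell in both, with 16.3, 15.5 and 14.1 CPM in the 48 h libraries, against 23, 23.1 and 23 CPM in the 24 h libraries (log2 fold change −0.59, SE 0.0807, adjusted p = 1.24e-08), and −1.02, SE 0.11, adjusted p = 6.47e-08 in pLKO. Cd55, a membrane inhibitor of complement, fell in both as well, with 10.8, 10.4 and 10.2 CPM in the 48 h libraries, against 17, 16 and 15.9 CPM in the 24 h libraries (log2 fold change −0.65, SE 0.0979, adjusted p = 1.71e-07), and −0.90, SE 0.252, adjusted p = 0.00962 in pLKO. The differences between sgCT and pLKO were not tested.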
